A study of Arabidopsis thaliana with 28 samples.

Results

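The results below concern 4 Arabidopsis thaliana genes, GI (GIGANTEA, AT1G22770), COR27 (AT5G42900), AT4G33980 and AT1G56300, in shoots and roots after wounding. They were selected on their signals over time in these same arrays, as genes of the evening. Each was represented by 1 probe set, and the 4 probe sets stood among 22746 probe sets for genes on the array, of which 16263 passed the filter on weak signals. Because the course over time chose them, their levels over time are given as a description without a test. Tests are given for the difference between the organs and for the first hour. Both kinds of test use arrays that entered that choice, so their p-values are not free of it and are not independent evidence.

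The arrays came from shoots and roots of Col-0 plants, the common laboratory accession, grown on Murashige and Skoog medium in 16 h days. Wounding was by puncture with pins on day 16, begun after 3 h of light, and whether leaves, roots or both were pricked is not stated. The 7 times of sampling, 0.25, 0.5, 1, 3, 6, 12 and 24 h, gave 14 groups of 2 arrays each and 28 arrays in all. Every group used here was wounded, and unwounded plants were not analysed here. The samples at 3, 6 and 12 h were therefore both later after wounding and later in the day, and the 2 cannot be told apart. By the stated start, 6 h after wounding fell 9 h after lights on, 12 h fell 15 h after lights on, and 24 h returned to 3 h after lights on.

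The plant circadian clock is a network of transcription factors that repress one another in turn, so that morning genes and evening genes alternate through the day. GI is a large plant-specific protein of the evening arm: it stabilises the blue-light receptor F-box protein that degrades clock repressors, and it promotes flowering in long days. COR27 is a small cold-regulated protein that is expressed in the evening, represses clock genes and takes part in light signalling during seedling growth. The tables used here name no product for AT4G33980 or AT1G56300, and they are given by locus only.

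All 4 genes had their highest sampled mean at 6 h in both organs. That is 9 h after lights on in a light period of 16 h, shortly past its middle and not in the evening. Nothing was sampled between 6 and 12 h, so the true time of the peak within that window is unknown. The 12 h sample lay 1 h before lights off. What differed between the genes was how much signal was left at 12 h and how early the rise had begun, and for several of them this was not the same in shoots and roots.

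The deposited values were linear MAS5 signals scaled to a common mean. The 40th percentile of the signals on an array, which served as the limit for a weak signal, ranged from 21.4 to 29.0. Correlations between the 2 arrays of a group were 0.967 to 0.989 in shoots and 0.971 to 0.992 in roots. The organ labels held against marker genes: 5 shoot markers summed to 17979 to 28654 in shoots and 223 to 591 in roots, and 4 root markers summed to 617 to 1968 in shoots and 2994 to 4184 in roots. Of the root markers, EXPA7 was above the weak-signal limit on 0 of 14 shoot arrays, EXPA18 on 1, LBD16 on 3 and PYK10 on 14. Of the shoot markers, SBPASE was above it on 2 of 14 root arrays, PRK on 10, LHCB4.2 on 12, and LHCB4.1 and RCA on 14, all far below their shoot signals. In roots the summed shoot markers were 223 to 311 at 12 h and 437 to 591 at 24 h, and the part of this in the root values at 12 h was not tested. The ratio of the 3′ to the 5′ actin probe sets, a sign of RNA quality, was 4.15 and 6.17 on the shoot arrays at 24 h and 2.22 to 3.68 on the other 12 shoot arrays. In roots it was 2.06 to 2.21 at 24 h and 2.03 to 2.96 elsewhere. The shoot samples at 24 h, which serve as the reference for several comparisons, thus stood apart, and the comparisons between organs were also computed against the mean of 0.25 and 0.5 h.

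GI was measured above the weak-signal limit on all 14 arrays of each organ. In shoots its signals were 51.1 and 50.2 at 0.25 h, 56.3 and 52.1 at 0.5 h, 91.3 and 69.2 at 1 h, 141 and 139 at 3 h, 379 and 365 at 6 h, 64.7 and 42.2 at 12 h, and 78.0 and 56.1 at 24 h. The shoot course was thus a narrow peak: the 6 h arrays were far above all others, the 3 h arrays came next, and by 12 h the signal lay in the same range as at 24 h. In roots the signals were 229 and 191 at 0.25 h, 138 and 171 at 0.5 h, 193 and 190 at 1 h, 316 and 335 at 3 h, 297 and 409 at 6 h, 205 and 181 at 12 h, and 152 and 240 at 24 h. The root course was flatter and broader: the arrays at 3 and 6 h overlapped, both were above the rest, and the arrays at 0.25, 1, 12 and 24 h lay in overlapping ranges.

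**Figure D1:**
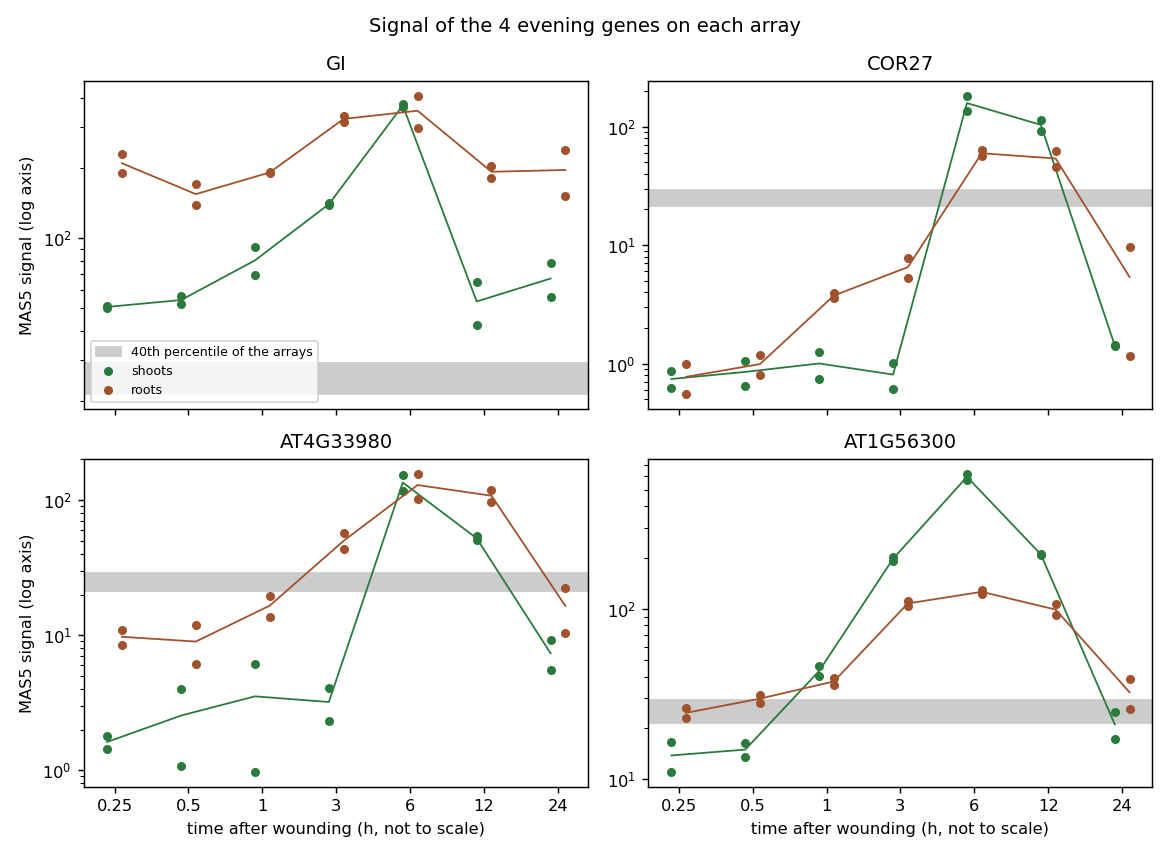
Signals of GI, COR27, AT4G33980 and AT1G56300 on each array (log axis) against the time after wounding (categories, not to scale), with shoots and roots marked separately, lines through the means of 2 arrays, and a grey band from 21.4 to 29.0 for the weak-signal limit. All 4 genes were highest at 6 h in both organs, GI was above the band throughout, and COR27 rose above it at 6 and 12 h only.

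The 6 h mean of GI was 372 ± 9.89 (SD, n = 2) in shoots and 353 ± 78.8 (SD, n = 2) in roots, and the ranges overlapped. Against 24 h, this was 5.62 times as high in shoots and 1.82 times as high in roots. On the log2 scale used for the fit, log2(signal + 10.7), the change from 24 h to 6 h was 2.31 ± 0.20 (SE) in shoots and 0.83 ± 0.20 (SE) in roots. The organs overlapped at the peak but not at the other times: the mean in roots was 4.14 times that in shoots at 0.25 h, between 2.33 and 2.93 times at 0.5, 1, 3 and 24 h, and 3.61 times at 12 h. Less RNA per cell and fewer cells with the transcript cannot be told apart in whole organs, here and in all that follows.

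Averaged over the 7 times, GI was lower in shoots than in roots by a log2 difference of -1.21 ± 0.07 (SE; adjusted p = 5.9e-13, limma). Of all probe sets tested, 88.2% were called in this comparison, and the median log2 difference over all of them was -0.27 (-0.16 after quantile normalization), so the direction for GI stands against a general shift of the same sign. The course of GI over time differed between the organs (F = 10.1 over 6 differences, adjusted p = 0.00024), where 42.2% of all probe sets were called. The change from 24 h to 6 h was larger in shoots by 1.48 ± 0.28 on the log2 scale (adjusted p = 0.000941; 12.8% of probe sets called). The changes to 3 h (0.24 ± 0.28, adjusted p = 0.665; 8.43% called) and to 12 h (-0.29 ± 0.28, adjusted p = 0.564; 11.9% called) did not pass the test for a difference between organs.

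The drop of GI from 6 to 12 h uses no 24 h array. The 12 h mean was 14.4% of the 6 h mean in shoots and 54.7% in roots, and the corresponding changes were -2.60 and -0.82 on the log2 scale. The drop was steeper in shoots by 1.78 (log2 difference of the changes, shoots minus roots, -1.78 ± 0.28; adjusted p = 0.000488), where 8.22% of all probe sets were called. At 3 h, GI already stood at 92.2% of its 6 h mean in roots and at 37.6% in shoots. Because the early part of the root rise also started from a higher base, these shares are levels and not rates.

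COR27 had a measured signal at 6 and 12 h and a weak one at every other time. In shoots its signals were 0.623 and 0.861 at 0.25 h, 0.642 and 1.06 at 0.5 h, 1.26 and 0.746 at 1 h, 0.614 and 1.0 at 3 h, 134 and 181 at 6 h, 114 and 92.5 at 12 h, and 1.44 and 1.41 at 24 h. In roots they were 0.556 and 0.992 at 0.25 h, 0.806 and 1.18 at 0.5 h, 3.92 and 3.60 at 1 h, 7.76 and 5.27 at 3 h, 56.1 and 63.1 at 6 h, 45.3 and 62.3 at 12 h, and 9.62 and 1.15 at 24 h. The probe set was above the weak-signal limit on 4 of 14 arrays in each organ, those at 6 and 12 h, and it passed the filter only through them. The order among the other times is not measured. In shoots the 6 h arrays were above the 12 h arrays, and in roots the 2 times overlapped.

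With the 24 h arrays set no lower than the weak-signal limit of each, COR27 at 6 h was at least 6.41-fold higher than at 24 h in shoots and at least 2.06-fold higher in roots. At 12 h it was at least 4.22-fold and at least 1.84-fold higher. The 12 h mean was 65.5% of the 6 h mean in shoots and 90.2% in roots, so that most of the COR27 signal was still there late in the light period in both organs.

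The signal of COR27 was higher in shoots at both measured times. The 6 h mean was 158 ± 33.3 (SD, n = 2) in shoots and 59.6 ± 4.98 (SD, n = 2) in roots, a ratio of 2.65, and the 12 h means were 103 ± 15.4 (SD, n = 2) and 53.8 ± 12 (SD, n = 2), a ratio of 1.92. The ranges of the organs did not overlap at either time. The fitted change from 24 h to 6 h was larger in shoots by 1.61 ± 0.29 on the log2 scale (adjusted p = 0.000649, limma), and the course over time differed (F = 10.6, adjusted p = 0.000176). Since both 24 h groups were below the weak-signal limit, the size of this difference depends on the offset, and on log2(signal + 1) it was 2.36 (adjusted p = 0.0466). The tests of this change and of the course rest in part on groups below the limit. What was measured above the limit is the higher signal of shoots at 6 and 12 h. The change to 12 h was larger in shoots by 1.19 ± 0.29 (adjusted p = 0.0095), but this call was lost without the first root array at 24 h, the one with a COR27 signal of 9.62, where it was 0.80 (adjusted p = 0.0732). It was also lost without the first 12 h array of shoots (1.05, adjusted p = 0.0529) or of roots (0.995, adjusted p = 0.0634) and on log2(signal + 1), where it was 1.92 (adjusted p = 0.112). The change to 3 h gave -0.22 ± 0.29 (adjusted p = 0.7) and the drop from 6 to 12 h gave -0.42 ± 0.29 (adjusted p = 0.436). Averaged over all times, COR27 differed by 0.12 ± 0.08 between shoots and roots (adjusted p = 0.162), a value made mostly of weak signals, with 10 of 14 groups below the limit. It was 0.17 without the first root array at 24 h (adjusted p = 0.0218) and -0.30, the opposite direction, on log2(signal + 1) (adjusted p = 0.164), so no direction is given.

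AT4G33980 was measured in shoots at the same times as COR27 and in roots already at 3 h. Its shoot signals were 1.44 and 1.8 at 0.25 h, 4.01 and 1.08 at 0.5 h, 0.973 and 6.08 at 1 h, 4.08 and 2.33 at 3 h, 116 and 154 at 6 h, 54.0 and 50.3 at 12 h, and 9.20 and 5.51 at 24 h. Its root signals were 8.47 and 11 at 0.25 h, 11.8 and 6.13 at 0.5 h, 13.8 and 19.4 at 1 h, 56.9 and 43.1 at 3 h, 102 and 156 at 6 h, 96.3 and 119 at 12 h, and 22.5 and 10.4 at 24 h. It was above the weak-signal limit on 4 shoot arrays, at 6 and 12 h, and on 6 root arrays, at 3, 6 and 12 h, and it passed the filter only through these groups. In shoots the 6 h arrays were above the 12 h arrays, while in roots the 6 and 12 h arrays overlapped and both were above those at 3 h.

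At 3 h AT4G33980 had a mean of 50.0 ± 9.74 (SD, n = 2) in roots and was below the weak-signal limit in shoots, so that roots were at least 2.11-fold higher. The fitted change from 24 h to 3 h was smaller in shoots than in roots, by a log2 difference of -1.56 ± 0.34 (adjusted p = 0.00603, limma). Both shoot groups and the root group at 24 h were below the limit, so the size of this difference is not measured, and on log2(signal + 1) it was -2.61 (adjusted p = 0.0352). The test rests on these weak groups too, with only the root arrays at 3 h above the limit. At 6 h the organs overlapped, with means of 135 ± 27.0 in shoots and 129 ± 38.0 in roots (SD, n = 2 each), and the change to 6 h differed by 0.63 ± 0.34 (adjusted p = 0.25). Against 24 h, the 6 h mean was at least 5.49-fold higher in shoots and at least 4.38-fold higher in roots.

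By 12 h the mean of AT4G33980 was 52.2 ± 2.59 in shoots and 108 ± 16.3 in roots (SD, n = 2 each), which put roots 2.07 times as high. This was 38.6% of the 6 h mean in shoots and 83.3% in roots. The change from 24 h to 12 h gave a difference between organs of -0.35 ± 0.34 (adjusted p = 0.576). The drop from 6 to 12 h gave -0.98 ± 0.34, which did not pass the test (adjusted p = 0.0823), and without the second root array at 6 h it was -1.26 (adjusted p = 0.0346). Over all times the fitted difference between shoots and roots was -0.82 ± 0.09 (adjusted p = 1.77e-08), and the F-test over the course gave 7.62 (adjusted p = 0.00121). With 9 of 14 groups below the limit, both tests rest largely on weak signals, and the size of the first is not measured. On log2(signal + 1) the first was -1.63 (adjusted p = 1.22e-07).

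AT1G56300 had a tall peak in shoots and a low, broad rise in roots. Its shoot signals were 11 and 16.5 at 0.25 h, 16.3 and 13.5 at 0.5 h, 45.9 and 40.5 at 1 h, 202 and 192 at 3 h, 572 and 620 at 6 h, 211 and 207 at 12 h, and 24.7 and 17.2 at 24 h. The arrays of every time from 1 h to 12 h stood clear of those at 24 h, and 3 h and 12 h flanked the 6 h peak at similar levels. Its root signals were 22.8 and 26.2 at 0.25 h, 28.1 and 31.3 at 0.5 h, 39.2 and 35.7 at 1 h, 105 and 111 at 3 h, 122 and 130 at 6 h, 106 and 91.7 at 12 h, and 38.8 and 25.9 at 24 h. In roots the 6 h arrays were above the 3 h arrays, the 3 and 12 h arrays overlapped, and the 3 together formed a plateau above all other times. The gene was above the weak-signal limit on 9 of 14 shoot arrays and 10 of 14 root arrays.

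The 6 h mean of AT1G56300 was 596 ± 34.0 (SD, n = 2) in shoots and 126 ± 5.35 (SD, n = 2) in roots. Shoots were 1.15 times as high as roots at 1 h, 1.83 times at 3 h, 4.73 times at 6 h and 2.11 times at 12 h, with no overlap at these times. At 0.25, 0.5 and 24 h roots were higher, again with no overlap, but many of these arrays were at or below the weak-signal limit. With weak shoot arrays set at the limit, the ratio of roots to shoots at 24 h was 1.29. The second root array at 24 h, at 25.9, was itself below its limit of 28.8, so this is not a lower bound. Whether the base of the changes tested next was lower in shoots is thus not settled. Against 24 h, the 6 h mean was 28.9 times as high in shoots, or 24.2 times with the weak 24 h array set at its weak-signal limit, and 3.97 times as high in roots. The 12 h mean was 35.1% of the 6 h mean in shoots and 78.6% in roots.

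For AT1G56300 each test between organs passed. The change from 24 h was larger in shoots by 1.25 ± 0.21 at 3 h (adjusted p = 0.000766, limma), by 2.59 ± 0.21 at 6 h (adjusted p = 2.96e-08) and by 1.44 ± 0.21 at 12 h (adjusted p = 9.96e-05), all on the log2 scale. In each organ 1 of the 2 arrays at 24 h was below the weak-signal limit, so these sizes depend on the offset. On log2(signal + 1) they were 1.46, 2.83 and 1.67. Of the 14 groups, 6 had at least 1 array below the limit. The drop from 6 to 12 h was steeper in shoots, with a difference of -1.14 ± 0.21 (adjusted p = 0.00175). The F-test over the whole course gave 46.8 (adjusted p = 5.82e-09), and the mean level was higher in shoots by 0.36 ± 0.06 (adjusted p = 4.36e-06), against the direction of the median probe set. Over all probe sets, 8.43% were called for the change to 3 h, 12.8% to 6 h, 11.9% to 12 h and 8.22% for the drop. The F-test called 42.2% and the mean level 88.2%, so a call of the mean level alone says little.

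**Figure D2:**
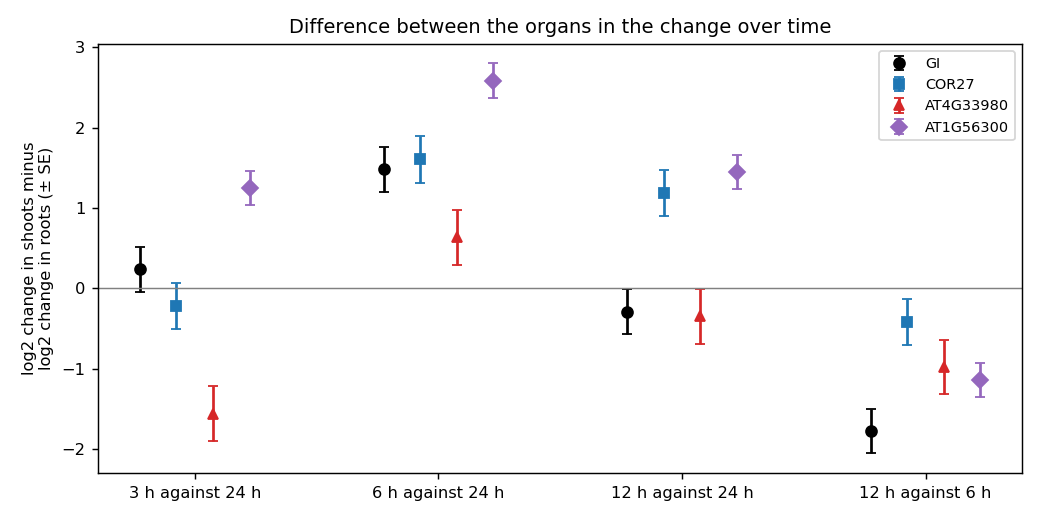
Shoot minus root difference (log2, ± SE) of the change from 24 h to 3, 6 and 12 h and of the change from 6 to 12 h, for the 4 genes. In the fit GI differed at 6 h (1.48) and in its drop (-1.78), COR27 at 6 h (1.61) and 12 h (1.19), AT4G33980 at 3 h (-1.56), and AT1G56300 at every point. COR27 and AT4G33980 were below the weak-signal limit at 24 h in both organs, and AT1G56300 on 1 of 2 arrays in each. The sizes of their differences from 24 h thus depend on the offset. The COR27 call at 12 h was lost on log2(signal + 1) and without any 1 of 3 arrays.

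The shoot arrays at 24 h stood apart in the actin ratio, so the differences between organs at 3, 6 and 12 h were also taken against the mean of 0.25 and 0.5 h. This reference was chosen after seeing the data. COR27 and AT4G33980 were below the weak-signal limit at 0.25 and 0.5 h in both organs, and AT1G56300 was in shoots. Only GI was above the limit throughout this reference, so for the other genes it is as weak a base as 24 h. The 12 results for the 4 genes all kept their side of the threshold. At 6 h the difference was 1.68 for GI (adjusted p = 2.35e-05), 1.26 for COR27 (adjusted p = 0.000879), 0.72 for AT4G33980 (adjusted p = 0.0885) and 2.75 for AT1G56300 (adjusted p = 7.11e-10). At 3 h the difference for AT4G33980 was -1.47 (adjusted p = 0.00115). At 12 h it was 0.84 for COR27 (adjusted p = 0.0167).

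**Figure D3:**
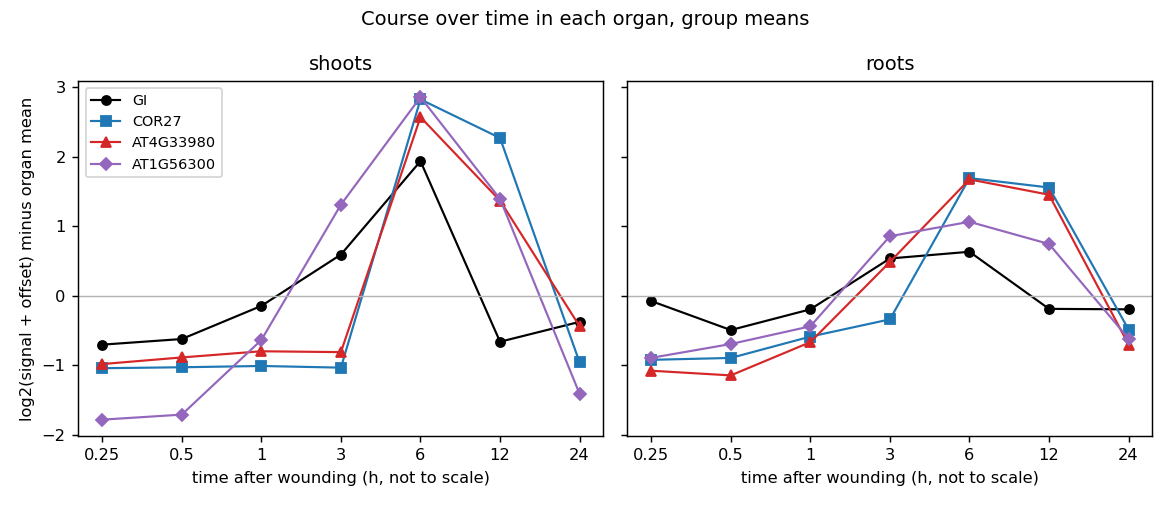
Group means of log2(signal + 10.7) minus the mean of the 7 times of the same organ, for the 4 genes, in shoots and in roots, against the time after wounding (categories, not to scale). In shoots GI fell back by 12 h while COR27 stayed high, with 65.5% of its 6 h signal. On this scale the 6 h peak was smaller in roots than in shoots for all 4 genes. For COR27 and AT4G33980 its size depends on the offset.

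The first hour was compared with 24 h, which is close to the same hour of the day. In shoots 24.4% of all probe sets were called at 0.25 h, 25.9% at 0.5 h and 32.9% at 1 h, and the shoot arrays at 24 h had the high actin ratios given above. In roots 0.314%, 0.418% and 0.0553% were called. Of the 4 genes, AT1G56300 in shoots at 1 h passed, with a log2 change of 0.78 ± 0.15 (adjusted p = 0.000398, limma). At 0.25 h, where both shoot arrays were below the weak-signal limit, AT1G56300 gave -0.37 ± 0.15 in shoots (adjusted p = 0.0764). Without the second shoot array at 24 h it was -0.54 (adjusted p = 0.0286), and without the second at 0.25 h -0.53 (adjusted p = 0.0328).

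GI did not pass in shoots at 0.25 h (-0.33, adjusted p = 0.243), 0.5 h (-0.25, adjusted p = 0.393) or 1 h (0.23, adjusted p = 0.403), each with an SE of 0.20. In roots GI gave 0.12 (adjusted p = 0.944), -0.30 (adjusted p = 0.809) and 0.00 (adjusted p = 1). COR27 and AT4G33980 were weak at these times in both organs, and AT4G33980 in shoots at 0.25 h gave -0.54 (adjusted p = 0.107), between 2 groups that were both below the weak-signal limit.

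Within the first hour, from 0.25 to 1 h, no 24 h array is involved. AT1G56300 rose in shoots by 1.15 ± 0.15 on the log2 scale (adjusted p = 5.2e-06, limma), where 21.9% of all probe sets were called. Both shoot arrays at 0.25 h were below the weak-signal limit for this gene, so the size of the rise is not measured. On log2(signal + 1) it was 1.60 (adjusted p = 4.7e-06). GI in shoots gave 0.56 ± 0.20 at an adjusted p of 0.0471, close to the threshold. Leaving out single arrays ended that call in 17 of 28 cases, with an adjusted p of 0.311 without the first shoot array at 1 h and of 0.12 and 0.131 without either array at 0.25 h. In roots, where 0.824% were called, AT1G56300 gave 0.45 ± 0.15 (adjusted p = 0.158).

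The likeness of the 4 courses was described over the 14 group means, each organ centred on its own mean, which share their libraries. COR27 and AT4G33980 were most alike (Pearson r = 0.96, Spearman rho = 0.79), with r = 0.98 over 7 means in shoots and 0.95 in roots. Below the weak-signal limit were 10 of 14 groups of COR27 and 9 of 14 of AT4G33980. Their r values, also with the nearest genes named below, thus rest mainly on the few groups above it. AT1G56300 was about equally like AT4G33980 (r = 0.82), COR27 (r = 0.80) and GI (r = 0.78). GI was least like COR27 (r = 0.50), with AT4G33980 between them (r = 0.61). In roots alone AT4G33980 and AT1G56300 reached r = 0.95 over 7 means.

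Among the other 8874 probe sets that passed the filter and carry 1 gene, 5 were named for each of the 4 genes by the highest Pearson r over the same 14 means. For GI these were AT1G12120 (0.95), AT1G10770 (0.94), AT1G20030 (0.89), AT2G21520 (0.89) and AT5G57410 (0.88). AT1G12120 had mean signals of 298, 148 and 155 in shoots at 6, 12 and 24 h, and of 276, 261 and 239 in roots. In shoots it was back near its 24 h level by 12 h, like GI, the gene whose course it was picked to match. In roots its 12 h mean stayed closer to the 6 h mean than that of GI did.

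COR27 and AT4G33980 shared 3 of their 5 nearest, AT1G17665, AT3G04550 and AT5G18540. The other two for COR27 were AT2G21130 (0.94) and AGL26 (0.93), and for AT4G33980 AT2G38465 (0.95) and CHX16 (0.91). AT1G17665, at 0.95 with COR27, had mean signals of 62.3, 51.1 and 2.38 in shoots at 6, 12 and 24 h, and of 18.7, 19.7 and 5.78 in roots. AT2G21130 had 305, 283 and 49.3 in shoots and 106, 94.8 and 55.5 in roots. In shoots both kept most of the 6 h signal at 12 h. The root values of AT1G17665 lie below the weak-signal limit and have no order.

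For AT1G56300 the nearest were AT3G07280 (0.97), LCR69 (0.96), AT5G39410 (0.96), AT2G26200 (0.95) and AT4G38020 (0.95). LCR69, whose name marks a low-molecular-weight cysteine-rich protein, had mean signals of 939, 727 and 181 in shoots at 6, 12 and 24 h and of 1391, 968 and 664 in roots. Its level was higher in roots than in shoots at each of these times, the reverse of AT1G56300 at 6 and 12 h, since the likeness is taken within each organ.

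Genes of the pathways around GI and COR27 were followed from lists, of which few members had a probe set with exactly 1 gene in the tables used here. The lists were chosen with earlier results of these data known, so calls of their genes are not independent evidence. Of the other 10 genes of the evening clock list, the 3 clock outputs and the 5 genes of starch breakdown, 0 could be followed, and they were not analysed here. Of 13 morning clock genes 1 was measured, AT5G52660. It did not pass in either organ at 3, 6 or 12 h against 24 h, with -0.34 ± 0.14 in shoots at 6 h (adjusted p = 0.0863), where it was called after quantile normalization (-0.42, adjusted p = 0.0355).

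Of 12 genes on the list of GI partners and flowering, SPY, AT2G34140 and AT1G69570 were measured. SPY encodes an O-glycosyltransferase that represses gibberellin signalling and binds GI. It did not pass at 3, 6 or 12 h in either organ, with 0.15 ± 0.17 in shoots at 6 h (adjusted p = 0.587), and neither did AT2G34140. AT1G69570 fell in shoots by 0.87 at 3 h (adjusted p = 0.00255), by 1.55 at 6 h (adjusted p = 2.39e-06) and by 1.85 at 12 h (adjusted p = 3.16e-07) on the log2 scale. Its shoot mean of 156 at 1 h compares with 25.3 at 6 h and 18.5 at 12 h, and the mean at 24 h was 95.5. It was thus low at 6 h, when GI was highest, and also at 12 h, when GI was back in the range of its 24 h signals. The arrays at 12 h and 1 of the 2 at 6 h were below the weak-signal limit, so the level at 24 h was at least 3.62-fold that at 6 h and at least 3.92-fold that at 12 h. In shoots, 10.2% of all probe sets were called lower at 3 h, 10% at 6 h and 9.39% at 12 h. In roots it fell by 0.72 at 12 h (adjusted p = 0.0244; 4.16% called lower), a call lost without the first 12 h array (adjusted p = 0.237), without the second 24 h array (adjusted p = 0.176), after quantile normalization (adjusted p = 0.0556) and with root arrays alone (adjusted p = 0.0577). Both root arrays at 12 h were below the limit. Its change to 6 h was lower in shoots than in roots by -0.996 ± 0.27 (adjusted p = 0.0183), and it was lost without any 1 of 4 arrays, at adjusted p-values from 0.0524 to 0.0929.

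Of 13 light signalling partners, HYH was measured, a bZIP factor close to HY5 that promotes light responses in seedlings. HYH changed in shoots by -1.39 ± 0.15 at 3 h (adjusted p = 1.04e-06), when COR27 was below the weak-signal limit. At 6 h, when COR27 was at its highest, the change of HYH was -2.36 ± 0.15 (adjusted p = 9.66e-11). The shoot signals of HYH were 147 to 157 at 24 h, 17.9 to 24.4 at 6 h and 91.6 to 119 at 12 h. At 12 h COR27 still had 65.5% of its 6 h mean, so the 2 courses matched at 6 h only in part. A link between them was not tested. Both 6 h arrays were below the weak-signal limit, so the 24 h level was at least 5.86-fold higher. At 12 h the fall was 0.50 (adjusted p = 0.0232), a call that was lost without the first 12 h array (adjusted p = 0.282), without either 24 h array (adjusted p = 0.0644 and 0.099) and with shoot arrays alone (adjusted p = 0.0561). In roots HYH gave -0.01 at 6 h (adjusted p = 0.993), and the difference between organs at 6 h was -2.35 ± 0.21 (adjusted p = 1.2e-07). In roots at 12 h it was higher by 0.65 (adjusted p = 0.0102), a call lost without the second 12 h array (adjusted p = 0.111) or the first 24 h array (adjusted p = 0.153).

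COR27 takes its name from the cold-regulated genes, and 4 of 13 genes of the regulon of the CBF cold factors were measured: the chloroplast protectant proteins COR15A and COR15B and the dehydrins COR47 and LTI30. In shoots 4 of 4 were called higher at 3 h, with a median log2 change of 3.98 (all probe sets -0.01; 11.4% called higher), and 4 of 4 at 6 h, with a median of 3.08 (all probe sets 0.05; 13% called higher). Since this list too was chosen with earlier results of these data known, the counts describe these genes and are not independent evidence. COR15A had shoot signals of 44.9 to 50.5 at 24 h, 3246 to 3700 at 3 h, 832 to 1194 at 6 h and 88.5 to 123 at 12 h, and a log2 change of 5.90 ± 0.46 at 3 h (adjusted p = 1.42e-07). COR15B was highest at 6 h, with 665 to 757, COR15A at 3 h, and COR47 and LTI30 had their highest means at 1 h. COR27 in shoots was at signals of 0.614 and 1.0 at 3 h, when these 4 genes were far above their 24 h levels.

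At 12 h in shoots 1 of the 4 was called higher, COR15B (1.76 ± 0.25, adjusted p = 2.52e-05; 10.3% called higher). COR47 gave 0.46 (adjusted p = 0.119) and was called too with shoot arrays alone (adjusted p = 0.0274) and without either root array at 24 h (adjusted p = 0.0234). In roots 0 of 4 were called at 3 h (0.191% called higher) and at 6 h (0.658%), and 1 of 4, COR47, at 12 h (0.91 ± 0.20, adjusted p = 0.00654; 3.23%). In the same comparison of roots at 12 h, 4 of 5 shoot markers were called lower, with a median log2 change of -0.85 over the 5, and 0 of 4 root markers were called. The part of this in the root changes of COR47, HYH and AT1G69570 at 12 h was not tested. The root values of COR47 turned on its 24 h arrays, at 557 and 1085. Without the first of them COR47 was called at 3 h (1.16, adjusted p = 0.000784) and at 6 h (1.12, adjusted p = 0.00073). Without the second, the 12 h call was lost (0.44, adjusted p = 0.131), as it was without the first 12 h array (0.86, adjusted p = 0.0809). The difference between organs at 6 h was 3.82 ± 0.65 for COR15A (adjusted p = 0.000774), 4.41 ± 0.36 for COR15B (adjusted p = 2.96e-08), 1.67 ± 0.46 for LTI30 (adjusted p = 0.023) and 0.79 ± 0.28 for COR47 (adjusted p = 0.074). Against the mean of 0.25 and 0.5 h it was -0.87 for COR47 (adjusted p = 0.0142), the opposite direction, and without the second root array at 24 h it was 1.26 (adjusted p = 0.00052). For LTI30 the value against the mean of 0.25 and 0.5 h was 0.89 (adjusted p = 0.125). The call for LTI30 was lost without any 1 of 5 arrays, at adjusted p-values from 0.0588 to 0.114, and that for COR15A on log2(signal + 1) (adjusted p = 0.115). COR15A and COR15B were weak in roots throughout, at no more than 19.7 and 19.2, so the sizes of their differences between organs are not measured.

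**Figure D4:**
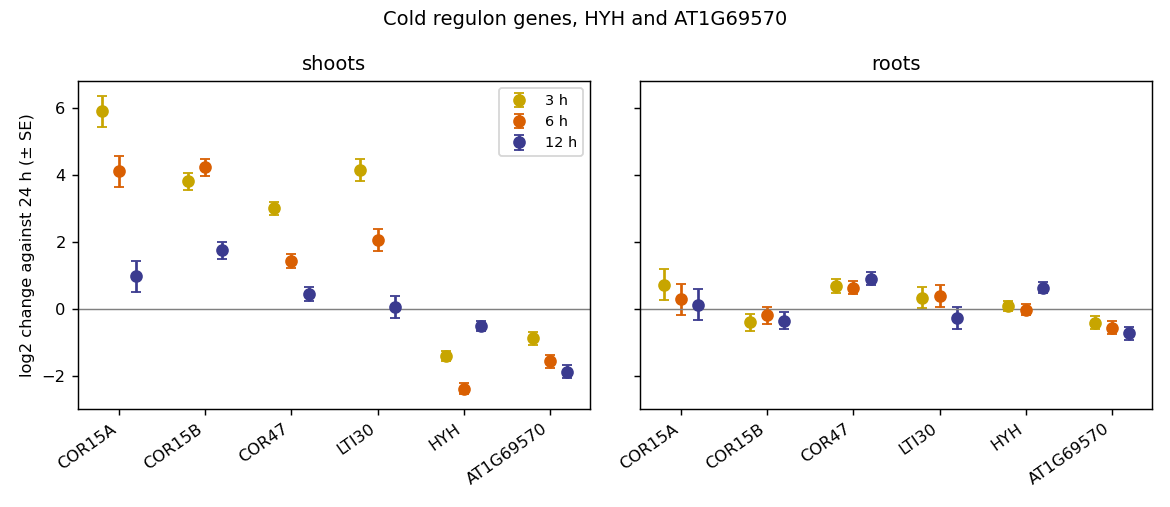
Log2 change against 24 h (± SE) at 3, 6 and 12 h of COR15A, COR15B, COR47, LTI30, HYH and AT1G69570, in shoots and in roots. In shoots the 4 cold-regulated genes were high at 3 and 6 h while HYH changed by -2.36 at 6 h. In roots the changes at 3 and 6 h were smaller, and at 12 h COR47 (0.91) and HYH (0.65) were higher than at 24 h.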

How the data were processed

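For each of 28 ATH1 arrays the deposited table gives the intensity of every probe set as a linear signal. Per the submitters' processing notes the authors used MAS5, of a version not given. The mean of each array after leaving out the highest and lowest 2% was 100.007 to 100.01, so the arrays were already scaled and were used as they are. The number of arrays, 2 a group, limits the precision. Labels do not say that replicates were separate cultures, so the p-values reflect only how these samples vary, and part or all of that may be technical. No values were identical between replicates.

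Of 22810 probe sets, 64 controls were left out. Values for the fit were log2(signal + 10.7). The offset, equal to the 25th percentile over the whole table, understates changes of weak signals. Tests used the 16263 probe sets for which both arrays of some group lay above the 40th percentile of their array. R 4.3.3 and limma 3.58.1 fitted 1 mean per organ and time (14 residual degrees of freedom, eBayes with trend and robust), and p-values were adjusted by Benjamini-Hochberg over all probe sets kept, with calls under 0.05. The procedure was run on simulated data with normally distributed noise and shifts added in shoots at 6 h only. That was a check of the code and not of the tests on weak signals. Gene names come from the platform table, which gives 1 gene for 13513 probe sets, and coordinates are not given because no build is named. Genes named are the 4 genes, the list genes measured on a probe set with 1 gene, and the 5 most alike for each. The members and lists were chosen with earlier results of these data known. Replicate numbers did not pair the samples: deviations of same-numbered arrays correlated between -0.28 and 0.19 over 91 pairs of groups.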

Additional observations from a re-analysis of the deposited data

Results flagged for a closer look

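Differences between shoots and roots under the same contrast, each called by the limma test of the difference itself, were found for 9 results of the 4 genes, all given as shoots minus roots on the log2 scale. For GI these were the change from 24 h to 6 h (1.48) and the change from 6 to 12 h (-1.78). For COR27 they were the changes from 24 h to 6 h (1.61) and to 12 h (1.19), the second of which did not hold without 1 of 3 arrays. For AT4G33980 it was the change to 3 h (-1.56), the one case in which roots were ahead. The 24 h groups of COR27 and AT4G33980 were below the weak-signal limit, so the sizes of their differences depend on the offset and their tests rest in part on weak signals. For AT1G56300 they were the changes to 3 h (1.25), 6 h (2.59) and 12 h (1.44) and the change from 6 to 12 h (-1.14). The sizes of its changes from 24 h depend on the offset too, since 1 of 2 arrays at 24 h was weak in each organ. The other results of the 4 genes under these contrasts did not pass. Over all probe sets, 8.43% were called for the change from 24 h to 3 h, 12.8% to 6 h, 11.9% to 12 h and 8.22% from 6 to 12 h. The genes were chosen for their course over time on these arrays, and the part of that choice in the differences listed was not tested.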

How the results depend on the processing

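Of the 56 tests on the 4 genes, those called in the fit as reported kept their direction under the alternatives run. The sign turned for 13 results that were not called, at adjusted p-values of 0.164 or more, among them the mean level of COR27 (-0.30 on log2(signal + 1)) and, without 1 root array at 24 h, the organ differences of GI at 3 h (-0.075) and 12 h (0.018) and of COR27 at 3 h (0.17). Quantile normalization, no filter, no trend and robust, and the replicate block each changed 1 call, GI in shoots from 0.25 to 1 h (adjusted p = 0.0719, 0.0625, 0.0565 and 0.0536), and the block, fitted although the numbers do not pair the samples, changed no other of these calls. A filter at the 60th percentile changed none of them, and log2(signal + 1) changed 3: COR27 at 12 h between organs (1.92, adjusted p = 0.112), and AT4G33980 (adjusted p = 0.0269) and AT1G56300 (adjusted p = 0.0404) in shoots at 0.25 h, which were then called. It also moved 19 of 32 untested values. Without 1 array, COR27 ranged from 0.061 to 0.17 in mean level and from 0.80 to 1.58 at 12 h, and the 6 to 12 h difference of AT4G33980 from -1.26 to -0.70. Untested values near 0 in roots changed sign without 1 array: GI from 24 to 12 h (0.01) to as low as -0.30, COR27 from 24 to 3 h to -0.24, and the drops of COR27 and AT4G33980 from 6 to 12 h to 0.06 each.

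The number of probe sets called between organs against the mean of 0.25 and 0.5 h, an alternative chosen after seeing the data, was 2844 at 3 h (1371 against 24 h), 3490 at 6 h (2074) and 4340 at 12 h (1942), and with it COR47 reversed at 6 h (-0.87). Root counts were small and unstable. At 0.25 h 51 became 22 on log2(signal + 1), 32 with the 60th percentile filter and 29 with root arrays alone. At 0.5 h 68 became 40 with root arrays alone. At 1 h 9 became 22 after quantile normalization, 3 on log2(signal + 1), 3 with the replicate block and 0 in limma with root arrays alone. From 0.25 to 1 h 134 became 76 on log2(signal + 1), and at 3 h 65 became 100 after quantile normalization and 41 with root arrays alone.

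Without 1 array, the counts between organs ranged from 679 to 1711 at 3 h and from 604 to 1587 for 12 against 6 h. Counts in shoots ranged from 2333 to 4038 at 0.25 h, 2416 to 4486 at 0.5 h, 1945 to 3854 at 3 h, 1861 to 3470 at 12 h and 903 to 1928 for 12 against 6 h. Counts in roots ranged from 25 to 134 at 0.25 h, 4 to 182 at 0.5 h, 0 to 122 at 1 h, 28 to 249 from 0.25 to 1 h, 11 to 165 at 3 h, 128 to 333 at 6 h, 397 to 1404 at 12 h and 297 to 1739 for 12 against 6 h. The cause of these shifts was not tested. Signals below the weak-signal limit have no order.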
